A study of Mus musculus with 8 samples.

Results

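The 10 genes described here are Nfe2l2, Keap1, Nqo1, Hmox1, Gclc, Gclm, Txnrd1, Srxn1, Nox4 and Cybb. They hold a redox sensor, the transcription factor it controls, 6 antioxidant genes known as targets of that factor, and the catalytic subunits of 2 NADPH oxidases. They were chosen by name among 55487 gene identifiers counted in mouse hearts, and all 10 were found. Of them 9 were among the 17636 genes abundant enough to test. Nox4 did not pass the filter on low counts.

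The hearts came from wild type mice (WT) and from mice with a global knockout of Set7 (Set7KO), a lysine methyltransferase encoded by Setd7, bred from heterozygous parents. Mice of each genotype received saline or isoproterenol, a beta-adrenergic agonist, by the subcutaneous route at 60 mg/kg on each of 14 days. Each of the 4 groups held 2 libraries of whole-heart RNA. The sources used here do not give strain, sex or age. They do not say whether the libraries of a group came from different animals, so a p-value here weighs a difference against the scatter of these samples only, and that scatter may be technical. The questions are whether isoproterenol moves these transcripts in the heart and whether the answer depends on Set7.

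As background, Keap1 holds the transcription factor Nrf2, encoded by Nfe2l2, in a complex with the Cul3 ubiquitin ligase that leads to its degradation. Oxidants and electrophiles modify cysteines of Keap1, Nrf2 escapes, and it binds antioxidant response elements (AREs) together with a small Maf protein. Its targets make glutathione, reduce quinones and thioredoxin, repair peroxiredoxins and degrade heme. This control acts on the Nrf2 protein, which RNA levels do not measure. NADPH oxidases sit on the other side of the balance, since they pass electrons from NADPH to oxygen and so make superoxide or hydrogen peroxide. Nox4 is the oxidase of cardiac myocytes and fibroblasts, and Cybb (Nox2) is the phagocyte enzyme, also made by endothelial cells and myocytes.

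The letters of the ARE core were looked for at the starts of these genes, because they are the site through which most of the set answers to Nrf2. RefSeq windows of 300 bases, from 250 before to 50 after a start site (GRCm38.p6), were at hand for 8 of the 10 genes. The search used the core TGACNNNGC and the AP-1 letters TGACTCA on both strands; the letters of both can overlap where AP-1 is followed by GC. Nfe2l2, Gclm, Srxn1 and 1 of 3 Txnrd1 start sites held the core, against 12.4% of 32544 windows of the same length. The 4 windows are printed 5′ to 3′ on the strand of the gene, with the matched letters in capitals.
Nfe2l2, chr2:75704614-75704913, minus strand: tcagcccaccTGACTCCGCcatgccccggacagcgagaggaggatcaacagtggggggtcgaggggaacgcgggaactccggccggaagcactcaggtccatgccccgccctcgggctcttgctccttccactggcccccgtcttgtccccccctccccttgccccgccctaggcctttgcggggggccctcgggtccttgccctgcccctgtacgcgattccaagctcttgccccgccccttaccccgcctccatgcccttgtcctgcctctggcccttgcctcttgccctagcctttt
Gclm, chr3:122245307-122245606, plus strand: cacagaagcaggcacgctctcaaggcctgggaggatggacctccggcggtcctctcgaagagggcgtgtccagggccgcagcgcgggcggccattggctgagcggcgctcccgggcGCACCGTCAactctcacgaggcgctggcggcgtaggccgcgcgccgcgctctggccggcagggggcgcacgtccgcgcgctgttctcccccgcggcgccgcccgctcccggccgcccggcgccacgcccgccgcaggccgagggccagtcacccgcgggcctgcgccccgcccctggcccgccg
Txnrd1, chr10:82858956-82859255, plus strand: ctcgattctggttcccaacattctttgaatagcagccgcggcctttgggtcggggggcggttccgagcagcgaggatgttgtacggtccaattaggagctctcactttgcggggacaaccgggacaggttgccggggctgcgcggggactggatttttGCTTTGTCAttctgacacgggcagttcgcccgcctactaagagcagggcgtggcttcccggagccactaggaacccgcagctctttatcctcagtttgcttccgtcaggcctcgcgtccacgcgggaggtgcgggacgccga
Srxn1, chr2:152105274-152105573, plus strand: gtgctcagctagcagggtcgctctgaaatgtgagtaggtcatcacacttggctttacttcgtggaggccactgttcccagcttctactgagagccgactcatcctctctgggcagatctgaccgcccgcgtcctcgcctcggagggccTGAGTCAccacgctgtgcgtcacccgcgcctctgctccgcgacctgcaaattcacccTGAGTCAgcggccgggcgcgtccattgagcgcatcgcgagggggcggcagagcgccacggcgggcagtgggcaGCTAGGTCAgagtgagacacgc

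Positions in these windows are those of the leftmost matched letter as printed. The core lay at -240 from the start of Nfe2l2 and -134 from that of Gclm. It lay at -92 from the Txnrd1 start shown and 28 after that of Srxn1. The match was on the strand of the gene for Nfe2l2 and on the opposite strand for Gclm, Txnrd1 and Srxn1. Srxn1 was the gene of the 8 that also held AP-1 letters, at -102 and at -45, which 5.19% of all windows held. The Keap1, Nqo1, Nox4 and Cybb windows held neither motif. A match is only a run of letters: no binding was measured in these hearts, and elements outside the window were not searched. Hmox1 and Gclc were not in the table of windows.

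The libraries held between 27847069 and 51705705 counts, and a floor of 3 counts was 0.0598 to 0.112 CPM, the count scaled to the size of its library. Setd7, the targeted gene, was at 43.0 to 72.6 CPM in the 4 WT libraries and 3.79 to 5.70 CPM in the 4 Set7KO libraries. All 10 cardiomyocyte markers were detected in every library. Genes of high and low GC content (the share of G and C in a gene's exons) differed between libraries: the log2 difference between genes of high and of low GC was -1.08 and -0.78 after isoproterenol in WT and -0.91 in Set7KO saline replicate 2, against 0.19 to 0.86 in the other 5 libraries. The GC trend therefore moved with isoproterenol in WT, and the main differences below are given also from a fit with GC and length offsets (terms that level this trend in each library). Set7KO saline replicate 2 also held 113.8 summed CPM of 8 neutrophil markers, against 3.47 to 13.1 elsewhere, and 10521 of 7 erythroid markers, against 1254 to 4351 elsewhere. Sample titles carry a letter, the meaning of which is not given: it differs between the 4 groups, except that Set7KO saline replicate 2 has the letter of WT saline. Whatever the letters mark cannot be told apart from the groups. Setd7 in that library was 5.70 CPM, against 3.79 to 4.45 CPM in the other Set7KO libraries and 43.0 to 72.6 CPM in WT.

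In none of 7 contrasts did a tested gene of the set pass edgeR's quasi-likelihood test at an adjusted p under 0.05. Of all tested genes, 0% passed for isoproterenol in WT, in Set7KO and for the interaction (the difference between those 2 effects), 0.051% for isoproterenol averaged over genotypes, and 0.00567% in each genotype contrast. In WT the treatment groups did not overlap for 6 of the 9 genes. Nfe2l2, Gclc, Gclm and Srxn1 were above saline in both isoproterenol libraries, as were 39.3% of all tested genes, and Keap1 and Hmox1 were below, as were 33.4%. At an unadjusted p under 0.05 stood 2 of the 9, Nfe2l2 and Keap1, beside 31.7% of all tested genes. With the offsets 0 of 9 passed in WT, beside 0.017% of all genes, and 1, Srxn1, stood at an unadjusted p under 0.05, beside 16.2%. In Set7KO, 2 of 9 were separated upward, Keap1 and Srxn1, beside 16% of all genes, and 0 downward, beside 18.7%. At an unadjusted p under 0.05 the set had 0 of 9 in Set7KO, against 9.66% of all genes.

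**Figure D1:**
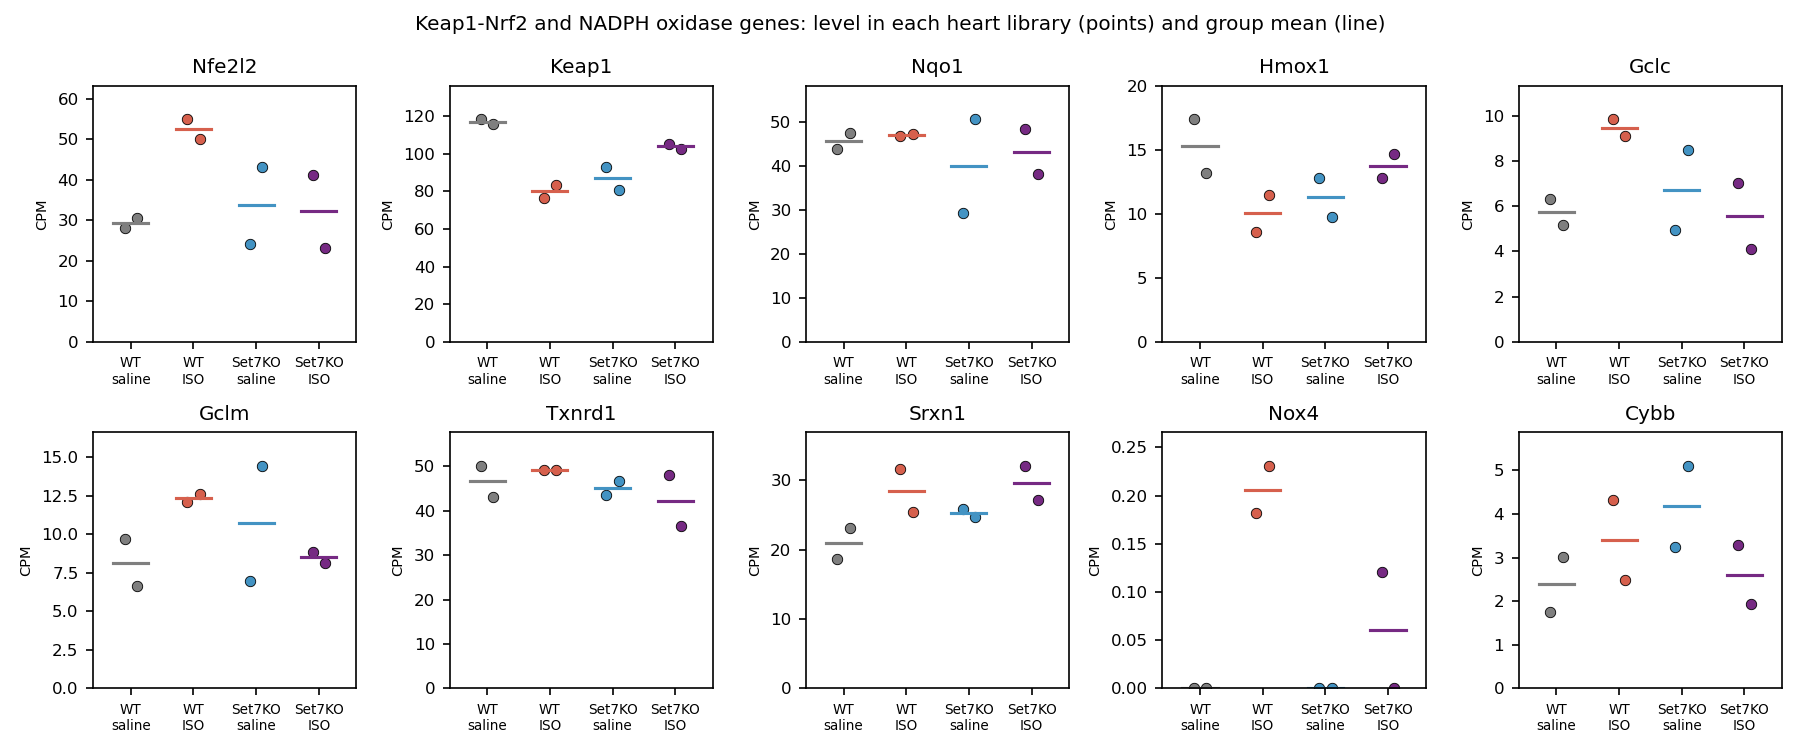
Level of each of the 10 genes in every library, in CPM on a linear axis from 0. Points are the 2 libraries of a group, ordered as replicate 1 and 2, and lines are group means; ISO is isoproterenol. Nfe2l2 stood at 28.2 and 30.5 CPM in WT saline and 54.9 and 49.97 CPM in WT isoproterenol, and Nox4 was at 0 in the 4 saline libraries.

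Per exonic length, Nqo1 and Keap1 were the most abundant of the set. In RPKM, which is CPM divided by the kilobases of exon, and as mean ± SD over the 8 libraries, Nqo1 stood at 28.3 ± 4.53 and Keap1 at 20.7 ± 3.40, and their ranges overlapped. Nfe2l2 followed at 9.73 ± 3.19, with Srxn1 at 9.25 ± 1.55, Hmox1 at 7.20 ± 1.57 and Txnrd1 at 6.46 ± 0.649. Within those 4 genes each neighbour overlapped the next. Gclc (1.83 ± 0.560) and Gclm (1.58 ± 0.450), the 2 subunits of 1 enzyme, overlapped each other and lay below all of these in every library. Cybb was lower again, at 0.541 ± 0.196, and Nox4 was lowest, between 0 and 0.0273 RPKM. The breaks that no library crossed were those between Keap1 and Nfe2l2, Txnrd1 and Gclc, Gclm and Cybb, and Cybb and Nox4.

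Nfe2l2 (ENSMUSG00000015839, minus strand of chromosome 2, 75675513 to 75704641, GRCm38) encodes Nrf2. Its level was 28.2 and 30.5 CPM in WT saline, 54.9 and 49.97 CPM in WT isoproterenol, 24.1 and 43.2 CPM in Set7KO saline, and 41.3 and 23.1 CPM in Set7KO isoproterenol. The WT groups were well apart, whereas in Set7KO each treatment had 1 high and 1 low library. The log2 difference between isoproterenol and saline was 0.84 ± 0.35 SE in WT (1.79-fold, unadjusted p = 0.0418, adjusted p = 0.145) and -0.07 ± 0.35 in Set7KO (adjusted p = 0.959). The difference between those 2 effects was -0.90 ± 0.49 (95% interval -2.03 to 0.22, adjusted p = 0.232). With GC and length offsets the WT difference was 0.39 ± 0.24 and the Set7KO one 0.10 ± 0.24.

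The genes whose profile over the 8 libraries lay closest to that of Nfe2l2 were Mfap3, Herpud2 and Rbl2, at root mean square distances of 0.070, 0.071 and 0.073 log2 units among 10830 genes, where the SD of Nfe2l2 itself was 0.480. Rbl2, for example, stood at 28.9 and 25.9 CPM in WT saline and 51.6 and 44.9 CPM in WT isoproterenol. In Set7KO saline it was 22.3 and 40.1 CPM. It thus shared with Nfe2l2 the high level in Set7KO saline replicate 2.

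Keap1 (ENSMUSG00000003308, minus strand of chromosome 9, 21229730 to 21239361), the cysteine sensor that targets Nrf2 for degradation, had the narrowest replicate scatter of the set in Set7KO isoproterenol and WT saline. It was at 118.2 and 115.7 CPM in WT saline and 76.5 and 83.4 CPM in WT isoproterenol. The Set7KO libraries held 93.1 and 80.7 CPM with saline and 105.0 and 102.6 CPM with isoproterenol. WT isoproterenol was thus below WT saline, and in Set7KO the order was the other way round, with no overlap in either genotype. The log2 difference was -0.55 ± 0.19 in WT (1.46-fold lower, unadjusted p = 0.0203, adjusted p = 0.113) and 0.26 ± 0.19 in Set7KO (adjusted p = 0.687).

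The interaction of Keap1 was 0.81 ± 0.27 (unadjusted p = 0.0169, adjusted p = 0.114), the only one of the 9 at an unadjusted p under 0.05, beside 30.6% of all tested genes. DESeq2 put Keap1 past the threshold in WT (adjusted p = 0.0419) and for the interaction (adjusted p = 0.0418), where it called 15.4% and 13.2% of all genes. With the offsets the 3 values of Keap1 were 0.02 ± 0.18 in WT, -0.01 ± 0.18 in Set7KO and -0.03 ± 0.25 for the interaction. In that fit 2 other genes of the 9 stood at an unadjusted p under 0.05 for the interaction, Nqo1 (0.72 ± 0.27, adjusted p = 0.311 in edgeR) and Gclm (0.68 ± 0.29, adjusted p = 0.354), beside 14.1% of all genes. Keap1 is the richest in GC of the set (58.0%), and the median difference of the 880 genes of its GC class was -0.60 in WT and 0.22 in Set7KO, close to its own. Of its exons 510 bases are shared with the antisense gene Gm16754, and no source used here says whether counting used strand.

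The other regulators of Nrf2 differed in no common direction. The list held 16 genes: partners of Keap1, small Maf proteins, Bach repressors, kinases and ligases that act on Nrf2, and relatives of Nfe2l2. Of the 15 tested (Nfe2l3 had no count), 0 passed the adjusted threshold in any contrast. In WT 3 stood higher and 4 lower by the unadjusted threshold of 0.05, against 18.5% and 13.3% of all tested genes, with a list median of -0.05 beside 0.06 for all genes. Cul3, the scaffold of the ligase that Keap1 serves, was at 9.33 and 9.71 CPM in WT saline and 27.2 and 25.3 CPM in WT isoproterenol. It was at 9.85 and 30.2 CPM in Set7KO saline, so replicate 2 of that group was as high as the WT isoproterenol libraries. Its WT difference was 1.46 ± 0.45 (adjusted p = 0.101), and 0.18 with the offsets.

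Bach1, a repressor that competes with Nrf2 at AREs, had a WT difference of 0.99 ± 0.39 (adjusted p = 0.130) and 0.46 with the offsets. Dpp3, which can bind Keap1 in place of Nrf2, had -0.81 ± 0.27 (adjusted p = 0.107) and -0.40 with the offsets. Sqstm1 (p62), an autophagy adaptor that draws Keap1 away, was at 534 and 521 CPM in Set7KO saline and 789 and 781 CPM in Set7KO isoproterenol, a difference of 0.57 ± 0.20 (adjusted p = 0.478; 0.40 with the offsets). In WT, Sqstm1 overlapped between treatments, at 730 and 703 CPM (saline) and 546 and 723 CPM (isoproterenol). Without Set7KO saline replicate 1, 2 of the 15 regulators passed in WT, Cul3 and Dpp3, and without replicate 2 these and Syvn1 did, in fits that called 20.1% and 20.7% of all genes. For the interaction the median of the regulators was -0.04 without replicate 1 and -0.005 without replicate 2. The median of all tested genes was then -0.04 and -0.003.

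**Figure D2:**
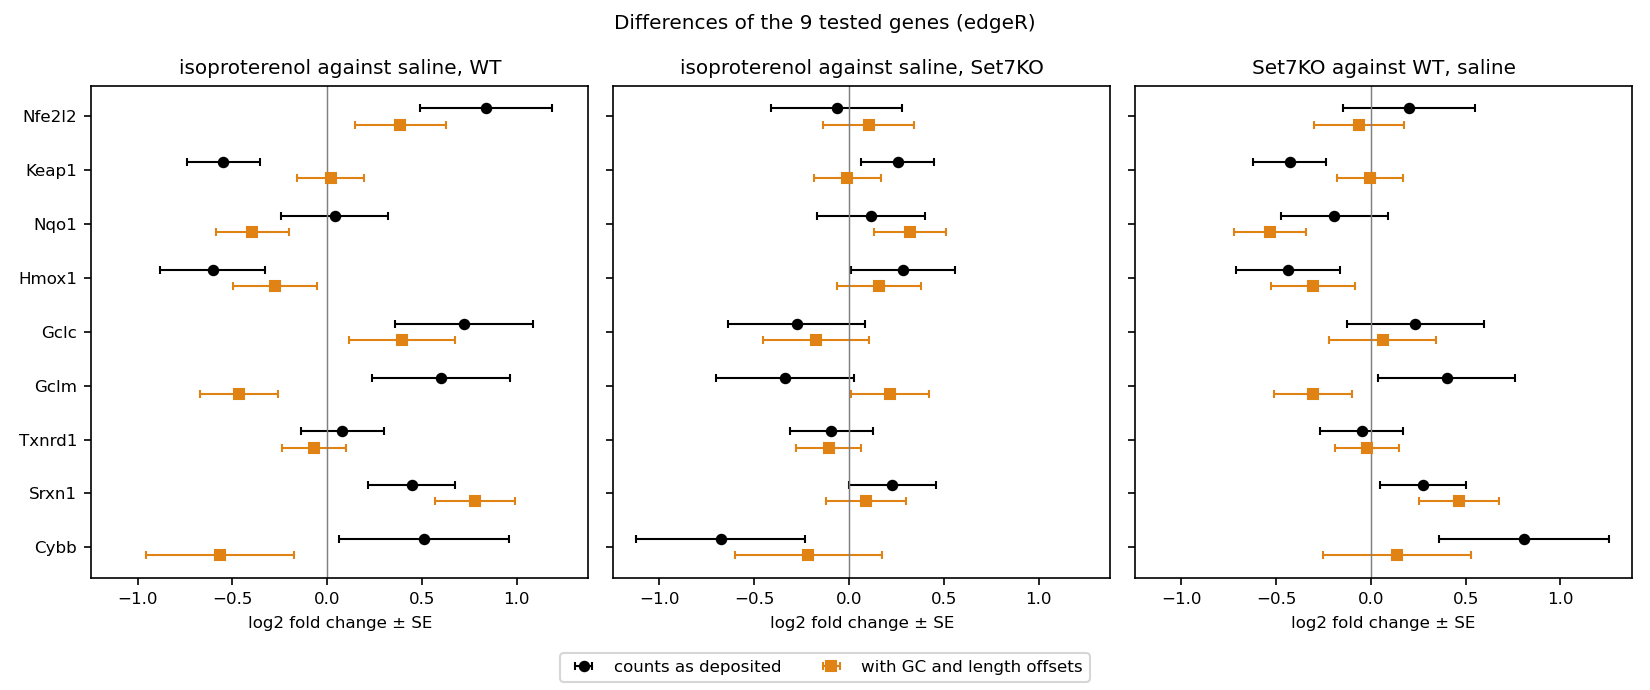
Log2 fold change with its standard error for the 9 tested genes in 3 contrasts. Circles are from edgeR on the deposited counts, squares from edgeR with GC and length offsets; each group has 2 libraries. Keap1 in WT was at -0.55 without and 0.02 with offsets, Gclm at 0.60 and -0.46, and Srxn1 at 0.45 and 0.78.

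Gclc (ENSMUSG00000032350, plus strand of chromosome 9, 77754535 to 77794485) and Gclm (ENSMUSG00000028124, plus strand of chromosome 3, 122245557 to 122270732) encode the catalytic and the modifier subunit of glutamate-cysteine ligase, the limiting enzyme of glutathione synthesis. Gclc was at 6.31 and 5.17 CPM in WT saline and 9.85 and 9.09 CPM in WT isoproterenol. Among Set7KO hearts the levels were 4.94 and 8.51 CPM (saline) and 7.02 and 4.10 CPM (isoproterenol). Gclm was at 9.67 and 6.63 CPM in WT saline and 12.1 and 12.6 CPM in WT isoproterenol. Without Set7, saline libraries had 6.99 and 14.4 CPM and isoproterenol libraries 8.82 and 8.16 CPM. Both subunits were thus separated upward in WT and scattered widely between the Set7KO saline libraries.

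The WT difference was 0.72 ± 0.36 for Gclc (adjusted p = 0.199) and 0.60 ± 0.36 for Gclm (adjusted p = 0.268). In Set7KO they were -0.28 ± 0.36 and -0.34 ± 0.36. The interaction was -0.9997 ± 0.51 for Gclc (adjusted p = 0.212) and -0.94 ± 0.51 for Gclm (adjusted p = 0.234). With the offsets Gclc kept a positive value in WT, 0.39 ± 0.28, whereas Gclm turned to -0.46 ± 0.21. The Gclm interaction then was 0.68 ± 0.29 in place of -0.94, so the 2 subunits pointed in opposite directions with offsets and in the same direction without. Gclm is among the poorest in GC of the set (42.1%), and the 880 genes of its class had a median of 1.01 in WT, above its own value. Its exons share 244 bases with the pseudogene Gm6061 on the same strand and 296 with Gm17494 on the other, so its counts are less certain. Without Set7KO saline replicate 1 its interaction passed, at -1.36 (adjusted p = 0.0295), in a fit that called 31.6% of all genes.

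Nqo1 (ENSMUSG00000003849, minus strand of chromosome 8, 107388225 to 107403206), a quinone reductase widely used as a readout of Nrf2 activity, was the flattest of the set with isoproterenol in WT. It was at 43.7 and 47.6 CPM (saline) and 46.7 and 47.1 CPM (isoproterenol). The Set7KO libraries held 29.2 and 50.6 CPM with saline and 48.3 and 38.1 CPM with isoproterenol. The lowest and the highest level of the 8 libraries were the 2 Set7KO saline replicates. The difference was 0.04 ± 0.28 in WT (95% interval -0.61 to 0.69) and 0.12 ± 0.28 in Set7KO (-0.53 to 0.76). Changes within those bounds remain compatible with the data. The intervals are for 1 gene at a time and do not give the smallest change that could pass the adjusted threshold.

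The offsets moved Nqo1 to -0.39 ± 0.19 in WT and 0.32 ± 0.19 in Set7KO. Between genotypes after saline it was -0.19 ± 0.28 without offsets and -0.53 ± 0.19 with them (unadjusted p = 0.0248, adjusted p = 0.818). The genes closest to Nqo1 in profile were Vipas39, Mrps30 and Cds2, at 0.071, 0.080 and 0.088 log2 units over the 8 libraries, beside an SD of Nqo1 of 0.261. Each of the 3 had its lowest level in Set7KO saline replicate 1, as Nqo1 did.

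Hmox1 (ENSMUSG00000005413, plus strand of chromosome 8, 75093621 to 75100589), the inducible heme oxygenase, was at 17.4 and 13.2 CPM in WT saline and 8.62 and 11.5 CPM in WT isoproterenol. Among Set7KO hearts the levels were 12.8 and 9.79 CPM (saline) and 12.8 and 14.7 CPM (isoproterenol). WT isoproterenol lay below WT saline, and the Set7KO groups met at 12.8 CPM. The difference was -0.60 ± 0.28 in WT (adjusted p = 0.172) and 0.29 ± 0.28 in Set7KO (adjusted p = 0.758), and the interaction was 0.89 ± 0.39 (adjusted p = 0.166). With offsets they were -0.27, 0.16 and 0.43. Hmox1 is also made by macrophages, and the summed level of 12 macrophage markers was 423 to 505 CPM in WT saline, 211 to 244 CPM in WT isoproterenol, 347 to 453 CPM in Set7KO saline and 288 to 475 CPM in Set7KO isoproterenol. Their part in the values of Hmox1 was not tested. In whole hearts fewer cells of a type and less RNA per cell cannot be told apart.

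Other genes of heme and iron handling passed in no contrast of the edgeR fit of all 8 libraries. Of the 11 listed, 10 were tested, and in WT 1 stood higher and 0 lower by the unadjusted threshold of 0.05, beside 18.5% and 13.3% of all genes. That was Flvcr1, a heme exporter, at 1.44 ± 0.48 (adjusted p = 0.106), and 0.78 with the offsets. With offsets the WT count was 0 higher and 2 lower, beside 6.78% and 9.41% of all genes. In Set7KO 2 were lower, beside 6.01% of all genes, and 0 higher, beside 3.65%. Hmox2, the constitutive heme oxygenase, was at 60.1 and 87.8 CPM in WT saline and 63.8 and 61.3 CPM in WT isoproterenol. Hp, haptoglobin, was at 4.03 and 10.4 CPM in Set7KO saline against 1.94 and 1.29 CPM in WT saline, a difference of 2.16 ± 0.56 (adjusted p = 0.483), with its highest level in the library that was high in neutrophil and erythroid markers.

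Txnrd1 (ENSMUSG00000020250, plus strand of chromosome 10, 82833951 to 82897712), the cytosolic thioredoxin reductase, varied least of the 10. It was at 50.1 and 43.1 CPM in WT saline and 49.3 and 49.3 CPM in WT isoproterenol. Without Set7, saline libraries had 43.5 and 46.6 CPM and isoproterenol libraries 48.0 and 36.5 CPM. The whole range was 1.37-fold. Its difference was 0.08 ± 0.22 in WT (95% interval -0.42 to 0.58) and -0.09 ± 0.22 in Set7KO (-0.59 to 0.41), and -0.07 and -0.11 with offsets.

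Srxn1 (ENSMUSG00000032802, plus strand of chromosome 2, 152105516 to 152111376) encodes sulfiredoxin, which restores over-oxidised peroxiredoxins, and its window above held both the ARE core and AP-1 letters. It was at 18.7 and 23.1 CPM in WT saline and 31.6 and 25.4 CPM in WT isoproterenol. The Set7KO libraries held 25.9 and 24.8 CPM with saline and 32.1 and 27.2 CPM with isoproterenol. Both isoproterenol libraries were above both saline libraries in each genotype, the only gene of the set for which this held. Taken singly, 39.3% of all tested genes were separated upward in WT and 16% in Set7KO. Over both genotypes the groups met, since 25.4 CPM of WT isoproterenol lay below 25.9 CPM of Set7KO saline. With the offsets the Set7KO groups overlapped, at 24.6 and 28.3 CPM (saline) and 31.5 and 24.8 CPM (isoproterenol).

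The difference of Srxn1 was 0.45 ± 0.23 in WT (1.36-fold, adjusted p = 0.206), 0.23 ± 0.23 in Set7KO (adjusted p = 0.764) and 0.34 ± 0.16 averaged over genotypes (adjusted p = 0.569). With offsets they were 0.78 ± 0.21 (unadjusted p = 0.00648, adjusted p = 0.186), 0.09 ± 0.21 and 0.43 ± 0.15 (unadjusted p = 0.0198, adjusted p = 0.359). It was the 1 member whose WT difference grew with the offsets and kept its sign, and DESeq2 with offsets put it past the threshold in WT (0.79, adjusted p = 0.0414), where that fit called 3.8% of all genes. The 881 genes of its GC class had a median of -0.30 in WT. After saline alone Srxn1 was 0.27 ± 0.23 between Set7KO and WT, with both Set7KO libraries above both WT libraries, beside 19.6% of all genes.

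**Figure D3:**
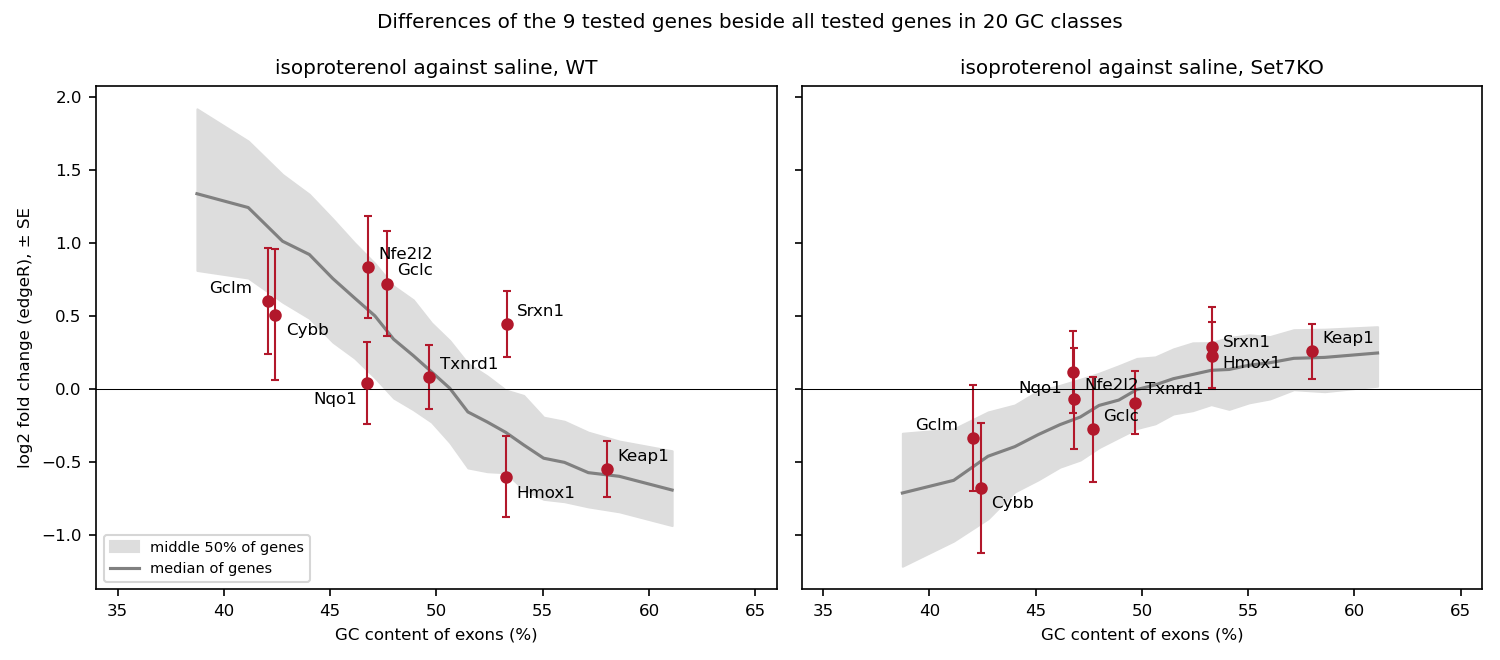
Log2 fold change between isoproterenol and saline against the GC content of exons, in WT (left) and Set7KO (right). Red points are the 9 tested genes with standard errors, the grey line is the median and the band the middle 50% of all tested genes in each of 20 GC classes. In WT the medians run from positive at low GC to negative at high GC and Srxn1 (53.3% GC) lies above its class; in Set7KO the slope is the other way.

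The remaining targets of Nrf2 lay on both sides of 0. The list held 37 genes of glutathione synthesis and use, NADPH supply, drug metabolism and iron storage, of which 36 were tested (Gpx2 had no count). In WT 4 stood higher and 9 lower by the unadjusted threshold of 0.05, beside 18.5% and 13.3% of all genes, with a median of -0.26, and in Set7KO 2 were higher, beside 3.65% of all genes, and 1 lower, beside 6.01%, with a median of 0.17. With offsets the medians were -0.25 and 0.17. Averaged over genotypes, 2 stood higher and 3 lower by that threshold, beside 4.5% and 4.9% of all genes (9.4% in either direction), and 0 passed after adjustment.

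Ephx1, the microsomal epoxide hydrolase, was at 62.6 ± 20.8 CPM over the 4 saline libraries and 114.5 ± 32.9 CPM over the 4 isoproterenol libraries (SD). Its averaged difference was 0.89 ± 0.22 (adjusted p = 0.234), and 0.98 with the offsets. Akr1b8, an aldo-keto reductase, was at 4.84 ± 1.12 CPM after saline and 8.83 ± 1.22 CPM after isoproterenol (0.86 ± 0.22, adjusted p = 0.261; 0.91 with offsets). For Ephx1 and Akr1b8 the 4 isoproterenol libraries were all above the 4 saline libraries, which held for 2.11% of all tested genes, with 2.01% separated the other way. On the other side, Ces1d, a carboxylesterase, had -1.10 ± 0.25 (adjusted p = 0.207) and Mgst3, a membrane glutathione transferase, -0.62 ± 0.18 (adjusted p = 0.321). Mgst3 in WT stood at 450 and 581 CPM (saline) and 199 and 243 CPM (isoproterenol), a difference of -1.22 ± 0.25 (adjusted p = 0.0941) that was -1.09 with the offsets. In Set7KO its treatment groups overlapped, at 412 and 316 CPM (saline) and 314 and 408 CPM (isoproterenol). Without Set7KO saline replicate 1, 8 of the 36 targets passed in WT, 2 higher and 6 lower, and without replicate 2, 9 did, 2 higher and 7 lower, beside 20.1% and 20.7% of all genes. Mgst3 was among them in both fits (adjusted p = 0.0219 and 0.0217). For the interaction 10 passed without replicate 1 and 0 without replicate 2, beside 31.6% and 0.0055% of all genes.

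Antioxidant enzymes outside the core Nrf2 list were 27 symbols, tested as 28 identifiers since Nnt has 2, between which its counts could be split. In WT 3 stood higher and 8 lower by the unadjusted threshold of 0.05 (median -0.12), beside 18.5% and 13.3% of all genes. In Set7KO 5 were higher, beside 3.65%, and 0 lower, beside 6.01% (median 0.22). For the interaction 11 were higher, beside 12%, and 3 lower, beside 18.6%. The list median in WT was -0.12 without Set7KO saline replicate 1 and -0.13 without replicate 2, beside 0.06 and 0.05 for all genes. For the interaction it was 0.28 and 0.57 in those fits, beside -0.04 and -0.003 for all genes. Mt2, a metallothionein induced by metals, glucocorticoids and oxidants, was at 24.7 and 14.9 CPM in WT saline and 47.0 and 48.3 CPM in WT isoproterenol. Among Set7KO hearts the levels were 20.9 and 40.6 CPM (saline) and 63.0 and 97.7 CPM (isoproterenol). All 4 isoproterenol libraries were above all 4 saline libraries, which held for 1 of the 28 identifiers, beside 2.11% of all tested genes. The averaged difference of Mt2 was 1.32 ± 0.27 (2.50-fold, unadjusted p = 0.00113, adjusted p = 0.186), and 1.45 with offsets. Of the 28, 3 stood higher and 0 lower in that averaged contrast by the unadjusted threshold of 0.05, beside 4.5% and 4.9% of all genes. Gpx8, a peroxidase of the endoplasmic reticulum, had a WT difference of 1.72 ± 0.36 (adjusted p = 0.0941) and 0.98 with offsets. Txn2, the mitochondrial thioredoxin, had -0.93 ± 0.23 (adjusted p = 0.0941) and -0.59 with offsets.

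**Figure D4:**
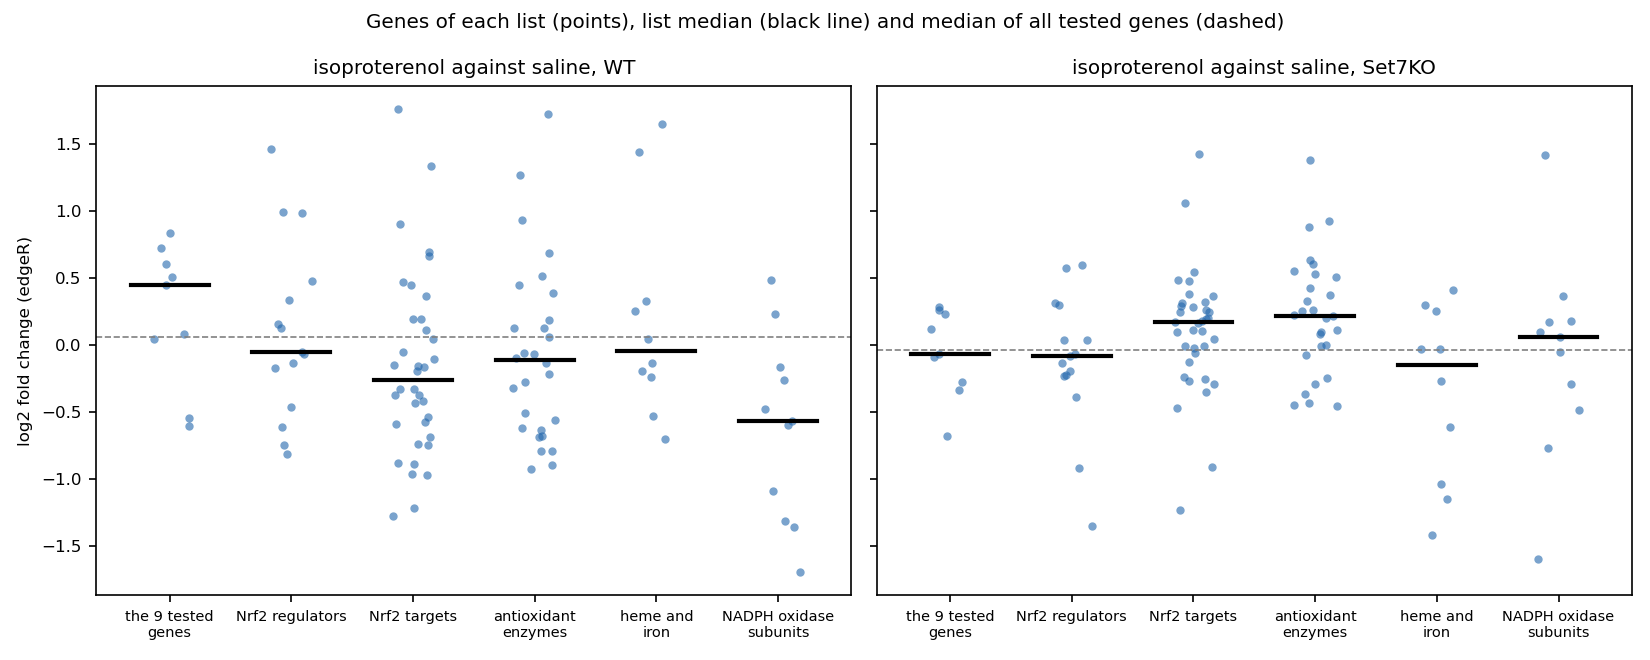
Log2 fold change between isoproterenol and saline in WT (left) and Set7KO (right) for the tested genes of 6 lists. Each point is a gene identifier, the black line the median of the list and the dashed line the median of all tested genes. NADPH oxidase subunits have a median of -0.57 in WT and 0.06 in Set7KO; points spread on both sides of 0 in the other lists.

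Nox4 (ENSMUSG00000030562, plus strand of chromosome 7, 87246096 to 87398710), the constitutively active oxidase that makes hydrogen peroxide, had 20 counts among 276857861 in all. These were 8 and 8 in the WT isoproterenol libraries and 4 in Set7KO isoproterenol replicate 1, that is 0.18, 0.23 and 0.12 CPM. The 4 saline libraries and Set7KO isoproterenol replicate 2 had 0 counts, below a floor of 0.0598 to 0.112 CPM. Pooled over its 4 libraries, isoproterenol stood at 0.144 CPM, 6.60-fold above a floor of 3 counts over the 4 saline libraries (0.0218 CPM). That pool includes the Set7KO isoproterenol library with 0 counts. In WT alone the ratio to such a floor was 3.86-fold. Nox4 was the poorest in GC of the set (37.9%). In the class of tested genes lowest in GC (median 38.7%), the median log2 difference was 1.34 in WT and -0.71 in Set7KO. The part of GC in the Nox4 counts was not tested. With counts in 3 libraries only, an exact permutation test of the 4 isoproterenol against the 4 saline libraries (two-sided, 70 regroupings) could give no p below 0.143, which is what it gave, so it does not bear on the difference. Intervals and floors cover counting error only. Nox4 was at this depth close to undetected, and a difference between genotypes was not detectable.

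Cybb (ENSMUSG00000015340, minus strand of chromosome X, 9435252 to 9487771), the catalytic subunit of the phagocyte oxidase, was low, from 47 to 256 counts a library. It was at 1.75 and 3.02 CPM in WT saline and 4.31 and 2.48 CPM in WT isoproterenol. Without Set7, saline libraries had 3.25 and 5.10 CPM and isoproterenol libraries 3.28 and 1.94 CPM. Replicates differed by 1.57-fold to 1.74-fold within each group, and only Set7KO saline against WT saline did not overlap. The difference was 0.51 ± 0.45 in WT (adjusted p = 0.436), -0.68 ± 0.45 in Set7KO (adjusted p = 0.651) and 0.81 ± 0.45 between genotypes after saline (adjusted p = 0.512). With offsets the 3 values were -0.57, -0.21 and 0.14. The genes nearest to Cybb in profile were Mpeg1, a pore protein of macrophages, Ctsc, a lysosomal protease that activates granule proteases of leukocytes, and Ndc1, a nuclear pore protein, at 0.163, 0.197 and 0.206 log2 units beside an SD of Cybb of 0.519.

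Most other listed oxidase genes had lower levels after isoproterenol in WT, none past the adjusted threshold. Of 15 listed genes for other subunits, regulators and oxidases, 11 were tested, and Nox1, Nox3, Noxa1 and Duoxa2 had no count. Among the 11, Noxo1, Duox1, Duox2 and Duoxa1 are not partners of Cybb. They were close to the floor, at means of 0.27, 0.76, 0.41 and 0.22 CPM. In WT 0 stood higher and 4 lower by the unadjusted threshold of 0.05, beside 18.5% and 13.3% of all genes, with a median of -0.57 beside 0.06 for all genes. The 4 were Rac2, Cyba, Ncf4 and Poldip2. Groups were separated downward for 8 of 11, beside 33.4% of all genes, and upward for 1, beside 39.3%. With the offsets the WT groups of Cyba, Ncf4, Rac2 and Duoxa1 stayed separated downward. Those of Ncf1, Cybc1, Poldip2 and Duox2 then overlapped, as for Poldip2 at 180 and 243 CPM (saline) and 196 and 198 CPM (isoproterenol). In Set7KO groups were separated upward for 2 of 11, beside 16% of all genes, and downward for 2, beside 18.7%. There 0 stood higher and 0 lower by the unadjusted threshold of 0.05, beside 3.65% and 6.01% of all genes, and the median was 0.06. With offsets 3 of 11 were lower in WT by that threshold, Cyba, Ncf4 and Rac2, beside 9.41% of all genes, and the median was -0.16.

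Cyba (p22phox), the membrane partner that stabilises both Cybb and Nox4, was at 44.2 and 49.8 CPM in WT saline and 21.3 and 22.8 CPM in WT isoproterenol. The Set7KO libraries held 51.5 and 29.5 CPM with saline and 34.7 and 56.6 CPM with isoproterenol. The 2 WT isoproterenol libraries were the lowest of the 8. Its WT difference was -1.09 ± 0.33 (2.13-fold lower, adjusted p = 0.0979), and -0.42 with the offsets. Cyba was far above Cybb per length, at a mean of 37.3 against 0.541 RPKM.

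Rac2, the GTPase of the leukocyte oxidase, was at 7.13 and 9.98 CPM in WT saline and 4.42 and 2.22 CPM in WT isoproterenol, again the lowest of the 8 libraries. Its WT difference was -1.36 ± 0.36 (adjusted p = 0.0946; -1.06 with offsets). Ncf4 (p40phox) had -1.32 ± 0.42 (adjusted p = 0.101; -0.82 with offsets). Rac1, the form found in most cells, stood at 0.23 ± 0.23. Poldip2, which binds Cyba, had -0.57 ± 0.22 (adjusted p = 0.131), and -0.10 with offsets.

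Averaged over genotypes, Rac2 (-0.92 ± 0.25) and Ncf4 (-1.05 ± 0.29) were lower at an unadjusted p under 0.05, 2 of 11 beside 4.9% of all genes, and none passed (lowest adjusted p = 0.299). In WT, Cyba, Ncf4 and Rac2 passed without Set7KO saline replicate 1 (adjusted p = 0.0302 to 0.0367) and also without replicate 2 (0.0296 to 0.0368). In these fits the group with 1 library was assumed to vary like the others, and 20.1% and 20.7% of all genes passed. For the interaction the median of the 11 oxidase genes was 0.71 without replicate 1 and 0.16 without replicate 2. The median of all tested genes was then -0.04 and -0.003. The summed level of the 12 macrophage markers was lower in both WT isoproterenol libraries than in the other 6, and none was at 0 in any library. In WT the difference was below 0 for 7 of the 12 and above 0 for 5. At an unadjusted p under 0.05, 4 were lower and 1 higher, beside 13.3% and 18.5% of all tested genes. The 8 lymphocyte markers summed to 9.67 and 13.6 CPM in WT saline and 2.81 and 1.56 CPM in WT isoproterenol, with at most 1 at 0 in a library, and to 6.88 to 12.3 CPM in Set7KO. The part of these cells in the oxidase values was not tested.

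**Figure D5:**
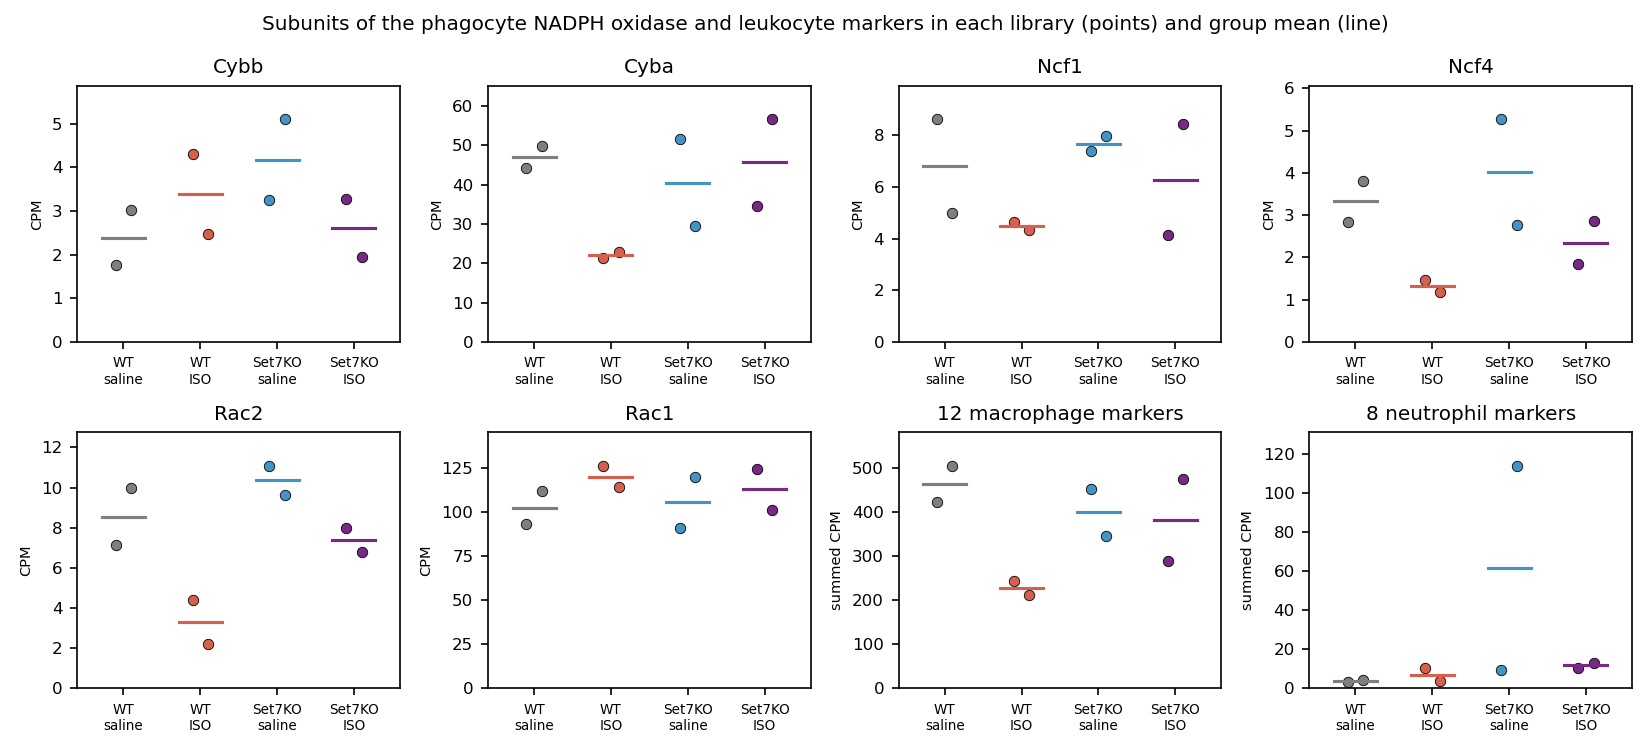
Levels in CPM of Cybb and 5 other phagocyte oxidase genes, and summed CPM of 12 macrophage and 8 neutrophil markers, in every library, on linear axes from 0. Points are libraries, ordered as replicate 1 and 2, and lines group means; ISO is isoproterenol. Cyba, Ncf4, Rac2 and the macrophage sum are lowest in the 2 WT isoproterenol libraries, and the neutrophil sum is 113.8 in Set7KO saline replicate 2.

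Between genotypes no gene of the set passed. After saline, Srxn1 and Cybb were separated upward and Keap1 and Hmox1 downward in Set7KO, 2 and 2 of 9 beside 19.6% and 18.3% of all tested genes. The largest in size was Cybb at 0.81 ± 0.45, and the one of smallest unadjusted p was Keap1, at -0.43 ± 0.19 (unadjusted p = 0.0542, adjusted p = 0.484). After isoproterenol, Keap1 and Hmox1 were separated upward, beside 31.8% of all genes, and Nfe2l2, Gclc, Gclm and Txnrd1 downward, beside 36.3%. Those values were 0.38 ± 0.19 for Keap1 and 0.45 ± 0.28 for Hmox1. They were -0.70 ± 0.35 for Nfe2l2, -0.77 ± 0.36 for Gclc, -0.54 ± 0.36 for Gclm and -0.22 ± 0.22 for Txnrd1 (lowest adjusted p = 0.265). At an unadjusted p under 0.05 stood 0 of 9 after saline, beside 10.3% of all genes, and 0 of 9 after isoproterenol, beside 19.9%. These comparisons share the WT isoproterenol and Set7KO saline libraries with those above, so they are not separate evidence.

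With offsets the values after isoproterenol were -0.03 for Keap1, 0.13 for Hmox1, -0.34 for Nfe2l2, -0.51 for Gclc, 0.37 for Gclm and -0.06 for Txnrd1. Averaged over treatments the 9 genes lay between -0.27 (Gclc) and 0.22 (Cybb), 0 of 9 were at an unadjusted p under 0.05, beside 1.56% of all genes, and 0 had separated groups, beside 0.289% of all genes higher and 0.267% lower. With 4 libraries a genotype the 95% intervals were -0.34 to 0.28 for Keap1, -0.81 to 0.31 for Nfe2l2 and -0.61 to 0.30 for Nqo1. Averaged differences within those bounds remain compatible with the data, and the bounds are no limit of detection.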

How the data were processed

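Mouse heart RNA was sequenced in 8 stranded mRNA libraries with single reads, per the labels' protocols. The deposited values are counts per gene; the tools in the submitters' processing notes are edgeR, StringTie, HISAT and HISAT2 and the build is GRCm38, with no versions or roles. All counts were whole numbers. Names, coordinates, lengths and GC content came from GENCODE M21 (GRCm38), which named 55227 of 55487 identifiers.

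Groups came from the labels. One model with a mean for each group took in the 8 libraries together, in edgeR 4.0.16 (TMM, filterByExpr, quasi-likelihood F-test, two-sided), with 7 contrasts and Benjamini-Hochberg adjustment over 17636 genes at a threshold of 0.05. Residual degrees of freedom were 4, prior ones 4.36, and the common biological coefficient of variation was 28.4%. CPM use TMM library sizes. Standard errors come from the F statistic and intervals are at 95%. Offsets per library were natural splines (5 degrees of freedom) of GC content and length. Alternatives were other normalizations, no filter, limma-voom 3.58.1, DESeq2 1.42.0, the offsets, and leaving out each library. Counts and medians of the lists without a Set7KO saline library were added after seeing the data. The procedure was tested on simulated data that held no GC or length trend between libraries, so that test does not bear on the trend seen here.

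The genes and lists were chosen with earlier results of these data known. Named are the 10 genes; up to 4 genes with the smallest p from each other list, at a mean of 1 CPM or more; any tested oxidase or regulator gene; and the 3 nearest profiles, among genes at a mean of 2 CPM or more, of Nfe2l2, Nqo1 and Cybb (Nox4 lay below that minimum). Hmox2 was named after its values were seen. One gene of the oxidase list is not reported here.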

Additional observations from a re-analysis of the deposited data

How the results depend on the processing

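No paired analysis was possible because the replicate numbers only name the libraries in accession order and pair none of them across groups. Of 1071 values of the 9 tested genes under the alternatives, 930 kept their direction. A sign changed in 91 of 252 values with GC and length offsets and in 50 of 819 without, and in 80 of these 141 the value moved by more than its standard error. Against 0 in the edgeR fit, DESeq2 called 1 of the genes for isoproterenol in WT (Keap1) and 1 for the interaction (Keap1), and DESeq2 with offsets 1 in WT (Srxn1). Leaving out 1 library gave 0 to 2 for the interaction, the 2 being Keap1 (0.91, adjusted p = 0.0439) and Gclm without Set7KO saline replicate 1. With offsets in edgeR and then in DESeq2, 23 signs turned in each fit. Those that also moved by more than the standard error were, for isoproterenol in WT, Keap1 at 0.019 and 0.026, Nqo1 at -0.39 and -0.39, Gclm at -0.46 and -0.46, and Cybb at -0.57 and -0.56. For isoproterenol in Set7KO they were Keap1 at -0.00913 and -0.00594 and Gclm at 0.21 and 0.21, and after saline Gclm between genotypes at -0.30 and -0.30. Between genotypes after isoproterenol they were Keap1 at -0.033 and -0.034, Nqo1 at 0.18 and 0.18, Gclm at 0.37 and 0.37, Srxn1 at -0.22 and -0.22, and Cybb at 0.49 and 0.49. For the interaction they were Keap1 at -0.028 and -0.032, Gclm at 0.68 and 0.67, and Cybb at 0.35 and 0.35, and averaged over genotypes Keap1 at 0.0050 and 0.010 and Gclm at -0.12 in edgeR. Leaving out each library in turn, and with offsets each Set7KO saline library, gave these ranges for genes whose sign turned by more than the standard error. For isoproterenol in WT they were -0.61 to 0.034 for Keap1, -0.41 to 0.068 for Nqo1, -0.46 to 0.89 for Gclm and -0.56 to 0.92 for Cybb. For isoproterenol in Set7KO they were -0.55 to 0.42 for Nfe2l2, -0.19 to 0.36 for Keap1, -0.23 to 0.58 for Nqo1, -0.72 to 0.18 for Gclc, -0.76 to 0.37 for Gclm and -7.37e-05 to 0.35 for Srxn1. Between genotypes after saline they were -0.35 to 0.56 for Nfe2l2, -0.54 to 0.17 for Keap1, -0.79 to 0.15 for Nqo1, -0.25 to 0.57 for Gclc and -0.46 to 0.83 for Gclm. After isoproterenol they were -0.054 to 0.44 for Keap1, -0.26 to 0.20 for Nqo1, -0.57 to 0.37 for Gclm, -0.23 to 0.22 for Srxn1 and -0.77 to 0.49 for Cybb. For the interaction they were -0.22 to 0.91 for Keap1, -1.36 to 0.81 for Gclm and -1.62 to 0.39 for Cybb, and averaged over genotypes -0.20 to 0.11 for Keap1, -0.14 to 0.30 for Nqo1 and -0.19 to 0.43 for Gclm. The cause was not tested. Over all genes the interaction had 0 calls in edgeR, 1686 with no filter, 2321 in DESeq2 and 5778 without Set7KO saline replicate 1. With 2 libraries a group, differences within the intervals given remain compatible with the data, and larger ones can also miss the adjusted threshold. The counts limit Nox4 and Cybb most.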
